A study of Mus musculus with 12 samples.

Results

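The 37 genes described here code for the transcription factor ATF4, for proteins of the stress response that it directs, and for enzymes and transporters with which cells make or import amino acids. They were chosen by name from the authors' gene table, with earlier results of these data known. Their shares set beside those of all tested genes are therefore a description and not independent support. All 37 names were found, in 38 of the table's 55573 rows, because Ddit3 has a second, overlapping identifier that held no read. All 37 were among the 13516 genes that reached a level of at least 1 in at least 3 libraries and were tested. Cbs reached that limit in vector libraries of day 21 alone, so that it had to differ from the others in comparisons with that group, and its values there are a description. By role they are 5 transcription factors, 6 effectors of the stress response, 3 secreted proteins, 9 enzymes of amino acid synthesis, 5 enzymes of one-carbon metabolism and 9 amino acid transporters.

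ATF4 is a basic leucine zipper transcription factor. When amino acids run short, when proteins misfold in the endoplasmic reticulum, when double-stranded RNA appears or when heme is lacking, kinases phosphorylate the translation factor eIF2alpha. Bulk protein synthesis then slows while the ATF4 messenger RNA is translated more, a switch known as the integrated stress response. ATF4 pairs with C/EBP proteins and other leucine zipper factors and raises genes for amino acid uptake, for the synthesis of serine, asparagine and proline, for one-carbon units carried by folate, and for feedback and cell death. In bone, ATF4 is known for its part in osteoblasts, which secrete large amounts of collagen and so need a large amino acid supply. Because ATF4 is controlled mainly through translation, the level of its messenger RNA is no measure of its protein, and protein was not analysed here.

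Messenger RNA was measured in 12 libraries of mouse embryonic fibroblasts, 3 in each of 4 groups. HOXB13 cells at day 21 and vector cells at day 21 had spent 21 days in OsteoMAX-XF, a medium sold to drive osteogenic differentiation. HOXB13 cells at day 1 and vector cells at day 1 were taken confluent, after a night in DMEM with 5% serum. HOXB13 cells had been given the avian retrovirus RCAS-HOXB13, which carries a homeobox transcription factor, and vector cells RCAS-GFP. All 4 groups came from β-actin-TVA/p53-/- embryos, so every cell carried the avian virus receptor TVA, driven by the β-actin promoter, and lacked p53. Day, medium and culture plate go together, and their parts in a difference between days cannot be told apart. The 3 libraries of a group were triplicate wells that no label ties to separate cultures or embryos, so p-values here measure the spread of these wells alone, which could be technical. By its title the series concerns excess HOXB13 and osteogenic differentiation.

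Letters of the kind known for ATF4 stood in the promoters of 10 of the 31 listed genes that RefSeq gave a window for. They are shown first because the listed genes are grouped by this factor. The site, the C/EBP-ATF response element, was searched as TGATGNAAN on both strands (its reverse complement is NTTNCATCA) from 250 bases before to 50 bases after each start site, on GRCm38.p6. The share was 32.3% of the 31 listed genes with a window (exact 95% interval 16.7% to 51.4%), against 3.95% of all 32851 windows in the table and 4.50% of its 27025 genes. The list was drawn up around ATF4 and its targets, so this comparison is a description and not a test. Each stretch below runs 5′ to 3′ on the strand of its gene, with the match in capitals. Stretches that meet an exon or the start site are cut to 29 bases.
Asns: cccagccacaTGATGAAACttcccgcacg
Atf3: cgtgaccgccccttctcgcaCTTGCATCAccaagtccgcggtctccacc
Chac1: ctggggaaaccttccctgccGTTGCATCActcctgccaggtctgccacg
Fgf21: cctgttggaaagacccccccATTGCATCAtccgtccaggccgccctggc
Nupr1: aaagggccagATTGCATCAgacagggctt
Pycr1: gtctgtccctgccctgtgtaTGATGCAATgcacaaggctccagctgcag
Slc1a4: tgcctcctgcGTTGCATCAtctccagcct
Slc7a11: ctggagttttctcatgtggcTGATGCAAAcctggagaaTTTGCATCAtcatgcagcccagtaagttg
Trib3: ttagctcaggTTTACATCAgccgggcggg
Vldlr: agcagcaataGTTGCATCAgcgctcctag

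Slc7a11, the gene of the cystine importer, held a pair of matches, one on each strand (chr3:50443633-50443699, minus strand), which began 66 and 48 bases before the start site. The asparagine synthetase gene Asns held its match 23 bases before the start (chr6:7693214-7693242, minus strand), in an annotated exon. The stretches of Atf3 (chr1:191183416-191183464, minus strand) and Chac1 (chr2:119351028-119351076, plus strand) lay in an intron of a longer transcript and upstream of every annotated transcript. Fgf21 (chr7:45615602-45615650, minus strand), Nupr1 (chr7:126625563-126625591, minus strand) and Pycr1 (chr11:120643823-120643871, minus strand) held the letters TGATGCAAT on one strand or the other. These letters stood in 3 of the 31 genes (9.68%), 0.222% of all genes and 0.192% of all windows. The matches of Slc1a4 (chr11:20332700-20332728, minus strand) and Trib3 (chr2:152344029-152344057, minus strand) began 5 bases before and 14 bases into the transcript. The Vldlr match lay 201 bases before the later of its start sites, in a stretch that meets an annotated exon (chr19:27216809-27216837, plus strand). The other 21 genes with a window, Atf4, Ddit3, Phgdh, Psat1 and Psph among them, had no match in it. Aldh1l2, Cth, Eif4ebp1, Slc1a5, Slc7a3 and Slc7a5 had no window in the table used here. A match is a run of letters, not a measured site, and no binding was measured.

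Levels are the authors' scaled RPM, the reads of a gene for each 1000000 reads of a library whose size was scaled by the TMM method, in order of library 1, 2 and 3, and log2 fold changes, each ± its standard error, are those of log2(scaled RPM + 1) from limma with its adjusted p. Gene reads came to 13299600 to 15154317 per library in HOXB13 at day 21, 12173173 to 13235707 in vector at day 21, 13529964 to 14938139 in HOXB13 at day 1 and 11109392 to 13594129 in vector at day 1. Hoxb13 matched the labels in all libraries, with 248 ± 8.59 and 327 ± 3.28 scaled RPM in HOXB13 cells at day 21 and day 1 and 0.343 ± 0.197 and 0.375 ± 0.197 in vector cells (SD, n = 3 each). The 9 fibroblast markers summed to 30144 to 31303 in HOXB13 and 26327 to 29133 in vector libraries at day 21. At day 1 their sums were 16440.5 to 16751 and 27752 to 28519.9. Most of each sum was Col1a1, Col1a2, Col3a1 and Vim, and Lum was at only 2.08 to 2.62 in vector libraries at day 1. By the test, HOXB13 cells had 4 of the 9 markers higher and 5 lower on each day. At day 21 Thy1 averaged 24.0 in HOXB13 and 146 in vector cells, while Pdgfra averaged 1134 and 505. The 10 mesothelial and epithelial markers moved with the virus in their sum, at 76.8 to 90.7 in HOXB13 against 3475 to 3556 in vector at day 21, and 198 to 212 against 1148 to 1190.1 at day 1, and none was at 0 in all libraries of a group. Of the 9 tested, 9 were lower in HOXB13 cells at day 21, and 8 were lower and Krt19 was higher at day 1, while Epcam stayed below the limit at under 0.5 in every library. Neural markers summed to 10.3 to 13.6 in HOXB13 and 5.92 to 6.38 in vector at day 21, and 214 to 221 and 102 to 107 at day 1, with Sox10 at 0 in all groups but vector at day 1. The day 1 sum was mostly Map2, and Tubb3 was lower in HOXB13, at 4.81 on average, than in vector cells, at 13.1. Macrophage, endothelial and muscle lists summed to 33.7 or less in every library, with Myod1, Myog and Ckm at 0 throughout. Xist was at 151 to 452 in vector libraries and below 1 in all HOXB13 libraries, so the virus cannot be told apart from a difference between the embryos the cells came from. In bulk samples like these, fewer cells of a type and less RNA per cell cannot be told apart.

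HOXB13 cells at day 1 stood apart from the other groups in these genes. They had the lowest mean of the 4 groups for 33 of the 37 genes, and for 31 of them all 3 of their libraries lay below all 9 others, while 20.8% and 12.3% of all tested genes did so. The exceptions were Shmt1 and Slc38a2, lowest in HOXB13 at day 21, and Stc2 and Slc1a5, lowest in vector at day 1. The 37 genes together took 0.566% ± 0.0120 of gene reads in HOXB13 at day 21, 0.663% ± 0.0115 in vector at day 21, 0.349% ± 0.00324 in HOXB13 at day 1 and 0.597% ± 0.00449 in vector at day 1 (SD, n = 3), shares that do not use the TMM scaling. By mean, 20 genes were highest in vector at day 21, 11 in vector at day 1, 5 in HOXB13 at day 21 and 1, Slc38a2, in HOXB13 at day 1. All 3 libraries lay above all 9 others for 16, 8, 4 and 1 genes in the same order of groups. Of all tested genes 17.6%, 22.8%, 18.9% and 12.3% did so. Cbs is counted among the 20 and the 16, places fixed by the limit on low values, and among the 33 lowest in HOXB13 at day 1.

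**Figure D1:**
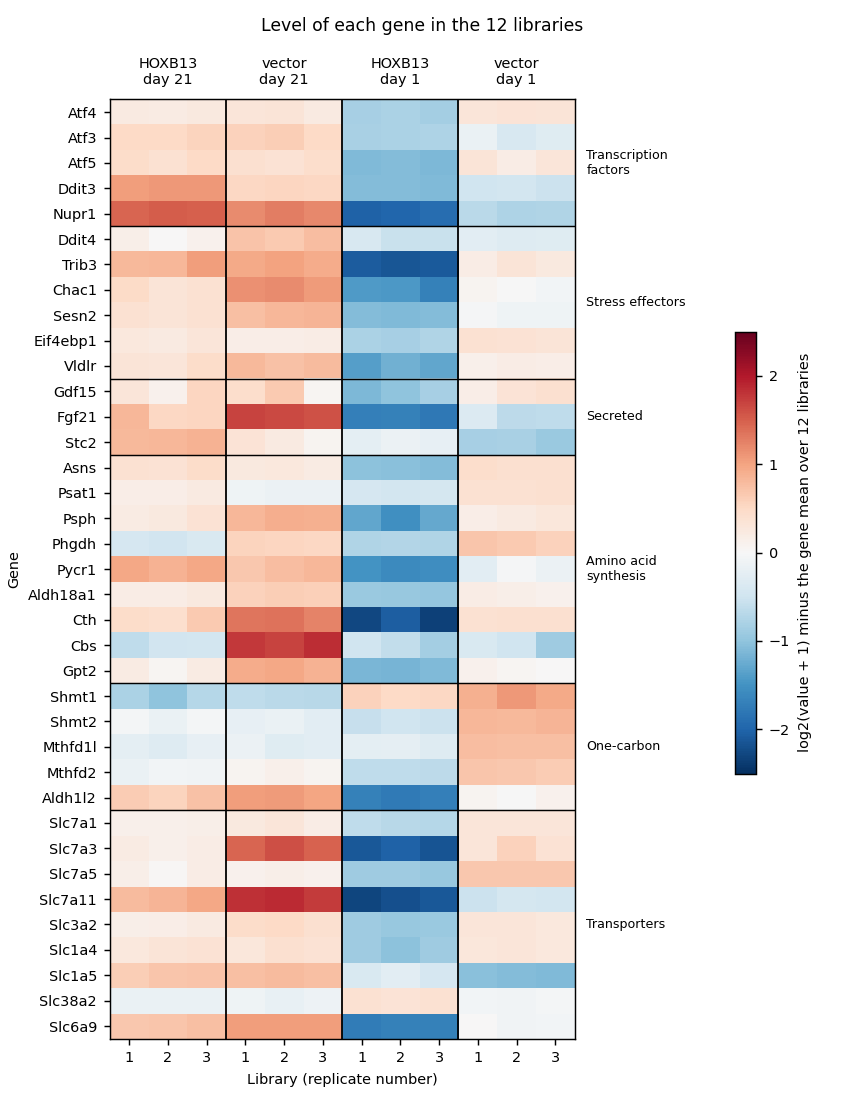
Rows are the 37 genes by role, columns the 12 libraries by group and replicate number, and the colour is log2(scaled RPM + 1) minus the gene's mean over all libraries, blue for below and red for above. The HOXB13 day 1 columns are blue for nearly every gene, with Slc38a2 and Shmt1 as the exceptions, and the 3 libraries of a group look alike.

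At day 1, before the differentiation medium, 33 of the 37 genes were lower in HOXB13 than in vector cells, 27 of them at least 2-fold. Across all tested genes 38.5% were called lower and 6.06% lower by at least 2-fold. Slc1a5, Slc38a2 and Stc2 were higher, none of them 2-fold, against 33.9% and 7.20% of all genes, and Cbs passed in neither direction. The groups did not overlap for 36 of the 37, against 75.0% of all tested genes. The median log2 fold change was -1.22 over the 37 genes and -0.028 over all tested genes. Without the TMM factors, which scaled HOXB13 day 1 libraries by 1.15 and vector day 1 libraries by 0.989 on average, the median over all genes shifted by 0.18 and higher calls made up 67.1% of all calls in place of 46.8%. The median over the 37 genes was then -1.03. Mesothelial and epithelial markers and Xist differed between the same libraries, and their part in these differences was not tested.

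**Figure D2:**
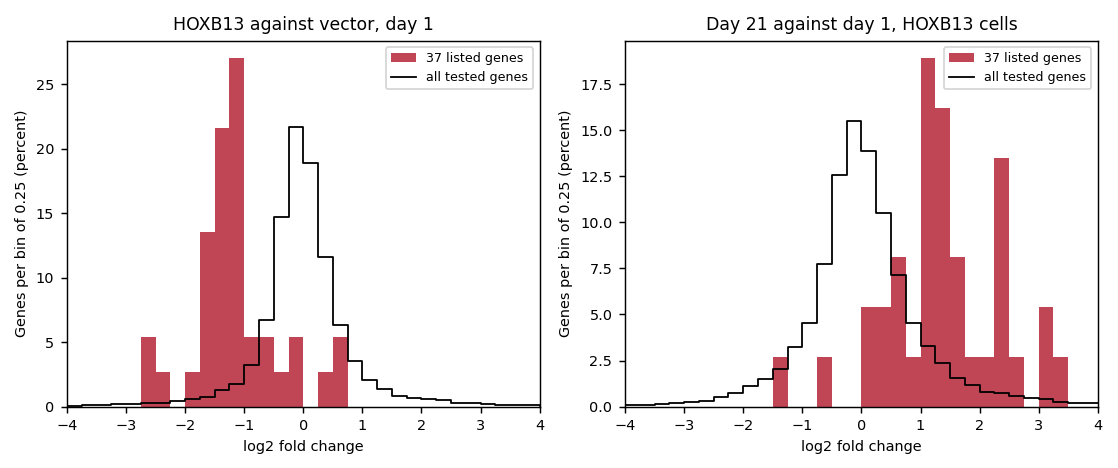
Each panel gives the percent of genes per bin of 0.25 in log2 fold change, for the 37 genes (red bars) and for all tested genes (black line). In HOXB13 against vector cells at day 1 most of the 37 lie between -2 and -1 while all genes centre near 0, and in day 21 against day 1 in HOXB13 cells most of the 37 lie above 1.

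All 5 transcription factors were lower in HOXB13 cells at day 1, as were 38.5% of all tested genes. Atf4 itself had 225, 233 and 225 scaled RPM in HOXB13 cells, against 496, 509 and 503 in vector cells. That is 2.21-fold lower with no overlap (log2 fold change -1.14 ± 0.027, adjusted p = 8.99e-21). Atf5, a relative of ATF4 that is also controlled through its translation, had 114, 116 and 113 scaled RPM in HOXB13, against 310.4, 281 and 304 in vector cells (-1.37 ± 0.035). Nupr1, a small nuclear stress protein, had 17.3, 17.8 and 18.99 against 45.4, 42.5 and 43.1 (-1.23 ± 0.042). The gaps were smaller for Ddit3, which encodes the cell death factor CHOP, and for Atf3, an early stress factor. Ddit3 averaged 13.4 ± 0.114 scaled RPM in HOXB13 and 20.9 ± 0.616 in vector cells, and Atf3 5.28 ± 0.0900 and 7.95 ± 0.729 (SD, n = 3).

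The 6 effectors were lower too, against 38.5% of all tested genes. They were led by Trib3, a pseudokinase that inhibits AKT and feeds back on ATF4. Trib3 had 14.5, 13.9 and 14.3 scaled RPM in HOXB13 and 73.9, 81.1 and 76.5 in vector cells, 5.41-fold lower (-2.36 ± 0.052, adjusted p = 2.98e-21). Chac1, which breaks down glutathione, had 12.3, 12.1 and 10.1 scaled RPM in HOXB13, against 36.3, 34.7 and 33.1 in vector cells (-1.52 ± 0.065). Both genes hold a match in the stretches printed above. Vldlr, a lipoprotein receptor, was 2.81-fold lower, Eif4ebp1, which restrains cap-dependent translation, 2.23-fold lower, and Sesn2, a leucine sensor that holds back mTORC1, 2.04-fold lower. Ddit4, another brake on mTORC1, differed least, at 29.5 ± 1.90 scaled RPM in HOXB13 and 34.2 ± 0.829 in vector cells, and its log2 fold change of -0.21 came to -0.0017 without the TMM factors.

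Of the secreted proteins, 2 were lower and 1 was higher, against 38.5% and 33.9% of all tested genes. Fgf21, a hormone of energy balance, had only 5 reads over the 3 HOXB13 libraries and 57 over the 3 vector libraries, a ratio of scaled levels of 0.0679 (exact 95% interval 0.0212 to 0.168), an interval that covers counting error only. Gdf15, a hormone that acts on appetite, had 33 and 118 reads, a ratio of 0.216 (exact 95% interval 0.142 to 0.321). Both hormones were low in these cells, so that the log2 fold changes of -1.19 ± 0.12 and -1.29 ± 0.15 understate the gaps. Stc2, a glycoprotein of calcium and stress biology, went the other way, with 33.7, 36.1 and 34.5 scaled RPM in HOXB13 against 22.2, 22.4 and 20.4 in vector cells (0.66 ± 0.059, adjusted p = 6.28e-10).

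Among the enzymes of amino acid synthesis 8 of 9 were lower, 7 at least 2-fold, against 38.5% and 6.06% of all tested genes. Cth, which releases cysteine in the last step of transsulfuration, had 4.54, 5.45 and 4.30 scaled RPM in HOXB13, against 34.2, 34.7 and 34.2 in vector cells. By log2 fold change it differed most of the 37 at day 1, 7.21-fold lower (-2.62 ± 0.074, adjusted p = 2.29e-19). That scale understates low genes, and by ratio of scaled levels Fgf21 differed more, 14.7-fold lower. The partner of Cth, Cbs, which catalyses the step before, was barely present, with 18 and 16 reads in all, a ratio of 0.871 (exact 95% interval 0.419 to 1.83). Asns had 114, 112 and 108 scaled RPM in HOXB13 and 313, 305 and 308 in vector cells (-1.46 ± 0.030). The 3 enzymes that make serine from a glycolytic intermediate fell together, Phgdh 2.64-fold, Psat1 1.77-fold and Psph 3.10-fold. Phgdh, the first of them, had 62.3, 63.4 and 63.1 against 173, 168 and 158 scaled RPM. The proline enzymes Pycr1 and Aldh18a1 were 2.78-fold and 2.15-fold lower, and Gpt2, the mitochondrial alanine transaminase, 2.31-fold lower.

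In one-carbon metabolism the 4 mitochondrial enzymes were all at least 2-fold lower in HOXB13 cells at day 1, against 6.06% of all tested genes. Shmt2, which takes a carbon unit from serine and leaves glycine, had 174, 183 and 179.8 scaled RPM in HOXB13, against 464, 459 and 469.8 in vector cells (-1.37 ± 0.033). Mthfd2, Mthfd1l and Aldh1l2, which oxidise the unit and release it as formate or carbon dioxide, were 2.48-fold, 2.04-fold and 3.47-fold lower. Aldh1l2, the furthest apart of the 5, had 66.7, 63.7 and 65.8 scaled RPM in HOXB13 and 229, 216 and 236 in vector cells. Shmt1, the cytosolic counterpart of Shmt2, was lower by less, at 40.6 ± 1.13 scaled RPM in HOXB13 and 55.5 ± 3.70 in vector cells (-0.44 ± 0.069).

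Of the 9 transporters 7 were lower and 2 were higher, against 38.5% and 33.9% of all tested genes. Slc7a5, the carrier of large neutral amino acids, had 194, 195 and 188 scaled RPM in HOXB13 and 579.8, 574 and 577 in vector cells (-1.58 ± 0.032). Its heavy chain Slc3a2 was 2.32-fold lower, and Slc7a11, which shares that chain and imports cystine, had 11.9, 12.97 and 13.6 against 42.6, 45.7 and 45.5 (-1.72 ± 0.051). So both light chains and the chain they share were lower. The arginine and lysine carriers Slc7a1 and Slc7a3 were 1.98-fold and 6.40-fold lower. Slc7a3 had 7.10, 7.65 and 6.82 scaled RPM in HOXB13 and 42.3, 51.6 and 44.2 in vector cells, and it lies on the X chromosome, like Xist. The glycine transporter Slc6a9 was 3.27-fold lower, and Slc1a4, a carrier of alanine, serine and cysteine, 2.37-fold lower. The glutamine carriers did the reverse: Slc1a5 had 54.00, 58.4 and 52.1 scaled RPM in HOXB13 and 33.4, 32.8 and 32.1 in vector cells (0.72 ± 0.042, adjusted p = 2.74e-13), and Slc38a2, which imports small neutral amino acids with sodium, 670.0, 656 and 673 against 489, 485 and 496 (0.44 ± 0.024).

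**Figure D3:**
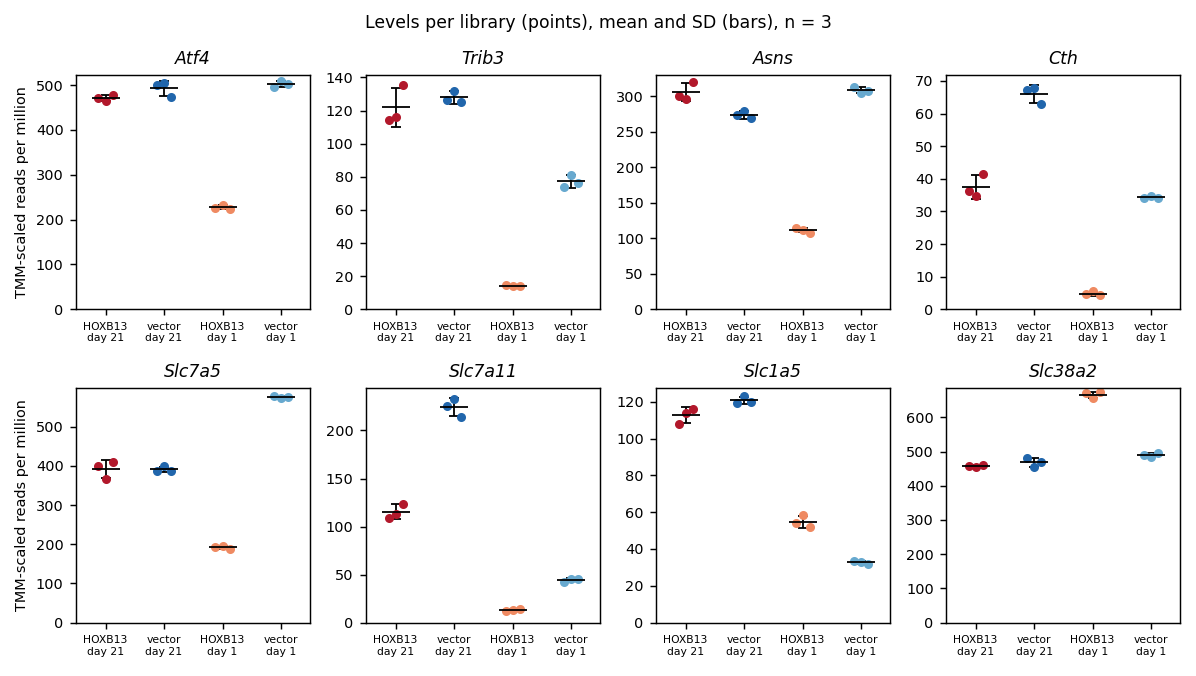
Each panel gives one gene's scaled RPM on a linear axis from 0, with a point per library and bars for the mean and SD (n = 3), for HOXB13 at day 21, vector at day 21, HOXB13 at day 1 and vector at day 1. Atf4, Trib3, Asns, Cth, Slc7a5 and Slc7a11 are lowest in HOXB13 cells at day 1, Slc1a5 is lowest in vector cells at day 1, and Slc38a2 is highest in HOXB13 cells at day 1.

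Genes with and without a motif match can be set side by side as a description. Of the 10 with a match, 10 were lower at day 1 and 9 at least 2-fold, against 38.5% and 6.06% of all tested genes. Their median log2 fold change was -1.43. Of the 21 with a window and no match, 18 were lower and 13 at least 2-fold, with a median of -1.10. Of the 6 without a window, 5 were lower, with a median of -1.68. Over the whole list 33 of the 37 were lower and 27 at least 2-fold. No test was made between the genes with and without a match.

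After 21 days in OsteoMAX-XF the gap between the cultures had another shape. In HOXB13 against vector cells at day 21, 8 of the 37 genes were higher and 21 lower, against 37.3% and 35.1% of all tested genes. None was higher by 2-fold (8.15% of all genes), and 3 were lower by 2-fold (8.40% of all genes), namely Cbs, Fgf21 and Slc7a3. With Cbs left out, 20 of 36 were lower and 2 of them by 2-fold. The median log2 fold change was -0.12, against 0.011 over all genes. The groups did not overlap for 27 of the 37, against 73.8% of all tested genes, a share near the background. Atf4 had 471, 465 and 478 scaled RPM in HOXB13 and 499, 505 and 473 in vector cells. These groups overlap, and the small difference (-0.063 ± 0.027, adjusted p = 0.0408) did not pass with edgeR (adjusted p = 0.0816) or DESeq2 (adjusted p = 0.0509).

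The genes lower in HOXB13 cells at day 21 came from several roles. Cbs had 0.379, 0.546 and 0.557 scaled RPM in HOXB13, against 6.28, 5.92 and 6.70 in vector cells, a ratio of 0.0787 (exact 95% interval 0.0472 to 0.124) with a log2 fold change of -2.29. Those values are a description, since Cbs was tested only through its vector day 21 libraries. Cth had 36.1, 34.8 and 41.5 against 67.2, 67.9 and 62.8 (-0.80 ± 0.074), and Slc7a11 109, 113 and 124 against 226, 232 and 214 (-0.95 ± 0.051). Slc1a4, which also carries cysteine, had 74.8, 77.9 and 80.5 against 76.1, 82.2 and 80.4 and did not pass (-0.033 ± 0.045, adjusted p = 0.525). Chac1 was 1.69-fold lower. Slc7a3 had 39.3, 37.5 and 38.9 scaled RPM in HOXB13 and 95.1, 106 and 96.8 in vector cells (-1.34 ± 0.066). Fgf21 had 189 and 402 reads, a ratio of 0.448 (exact 95% interval 0.375 to 0.533). Phgdh was 1.96-fold lower, Gpt2 1.71-fold, Psph 1.52-fold and Ddit4 1.56-fold lower.

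Other members were higher in HOXB13 cells at day 21 or close to vector cells. Ddit3 had 62.3, 63.8 and 64.1 scaled RPM in HOXB13, against 42.8, 43.6 and 42.8 in vector cells (0.55 ± 0.051, adjusted p = 1.48e-09), and Stc2 70.6, 71.6 and 73.99 against 50.9, 47.01 and 42.05 (0.62 ± 0.059). Psat1 was 1.25-fold higher, Nupr1 1.20-fold higher and Asns 1.12-fold higher, with no overlap for the 3 genes. The serine pathway thus did not move as a unit, since Psat1 was higher while Phgdh and Psph were lower. Trib3 had 114, 116 and 136 against 127, 132 and 125 and did not pass (-0.071 ± 0.052, adjusted p = 0.226), though it did without the TMM factors (-0.14, adjusted p = 0.0152). Slc7a5 had 399.6, 367 and 410.2 against 388, 399 and 387 (0.0024 ± 0.032, adjusted p = 0.951). It was called lower without the TMM factors (-0.072, adjusted p = 0.0338) and with quantile normalization (-0.081, adjusted p = 0.0152). The calls for Shmt2, Pycr1, Eif4ebp1, Shmt1 and Slc1a5, all with differences under 0.2 on the log2 scale, were each lost under at least 1 other setting. Without the TMM factors 5 genes were higher by the test in place of 8, and 5 lower by 2-fold in place of 3. Leaving out vector day 21 library 1 left 1 gene lower by 2-fold, Slc7a3, since Cbs then fell below the limit on low values and Fgf21 had a log2 fold change of -0.99.

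**Figure D4:**
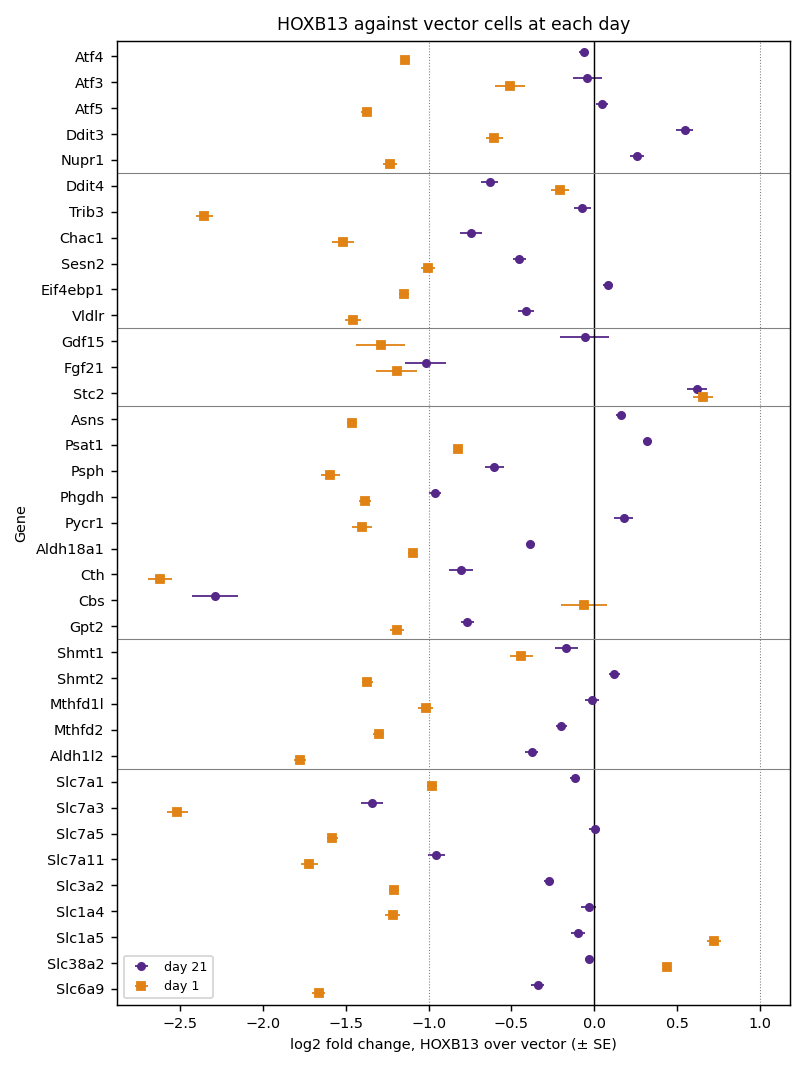
The horizontal axis is the log2 fold change of HOXB13 over vector cells with its standard error, for the 37 genes by role, with circles for day 21 and squares for day 1; dotted lines mark 2-fold. The day 1 squares lie mostly between -1 and -2.6, while the day 21 circles scatter around a median of -0.12. Past 2-fold on the left at day 21 lie Slc7a3 at -1.34, Fgf21 at -1.02 and Cbs at -2.29, which was tested only through its vector day 21 libraries.

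HOXB13 cells held more of most of these messengers at day 21 than at day 1. In HOXB13 cells 33 of the 37 genes were higher at day 21 and 27 of them at least 2-fold, against 39.5% and 13.2% of all tested genes. Shmt1 and Slc38a2 were lower, Shmt1 by 2-fold, against 40.6% and 10.5% of all genes, and Cbs and Mthfd1l did not pass. The median log2 fold change was 1.29, against -0.010 over all genes. Without the TMM factors the median over all genes shifted by -0.24, that over the 37 genes was 1.03, and higher calls made up 34.3% of all calls in place of 49.3%. In that setting Mthfd1l was called lower (-0.25, adjusted p = 1.44e-05) and Phgdh, at 0.061, did not pass. Mitochondrial genes took 1.70% to 1.78% of reads at day 21 and 1.35% to 1.42% at day 1 in HOXB13 cells, and 2.53% to 2.84% and 1.08% to 1.21% in vector cells, and their part was not tested. This comparison and that of the viruses at day 1 share the HOXB13 day 1 libraries, so their values for a gene are not independent.

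On the log2(scaled RPM + 1) scale, which understates the change of low genes, the largest rise was that of Nupr1, with 202, 211 and 208 scaled RPM at day 21 in HOXB13 cells, against 17.3, 17.8 and 18.99 at day 1 (3.45 ± 0.042, adjusted p = 7.91e-27). Slc7a11 followed at 8.99-fold higher, with 109, 113 and 124 at day 21 and 11.9, 12.97 and 13.6 at day 1. Trib3 was 8.55-fold higher and Cth 7.86-fold higher. Pycr1, the last enzyme of proline synthesis, had 77.8, 72.6 and 77.8 scaled RPM at day 21 against 13.3, 12.5 and 12.8 at day 1 (2.48 ± 0.058), and Aldh18a1, the first, 321, 319 and 332 against 147, 145 and 143 (1.16 ± 0.028). Slc6a9 and Aldh1l2 were 5.54-fold and 5.23-fold higher and Atf4 2.07-fold higher. Fgf21 had 189 reads at day 21 and 5 at day 1, a ratio of 45.8 (exact 95% interval 19.3 to 143), which is above that of Nupr1. Shmt1 fell to 15.6, 13.3 and 16.6 scaled RPM at day 21, against 41.8, 39.6 and 40.3 at day 1 (-1.37 ± 0.069), while its mitochondrial counterpart Shmt2 was 1.37-fold higher.

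In vector cells the same interval split the list. Of the 37 genes 23 were higher and 10 lower at day 21, against 41.7% and 41.9% of all tested genes, and 11 were higher and 2 lower by at least 2-fold, against 16.1% and 12%. With Cbs left out, 22 of 36 were higher and 10 of them by 2-fold. The median log2 fold change over the 37 was 0.66. Slc7a11 had 226, 232 and 214 scaled RPM at day 21, against 42.6, 45.7 and 45.5 at day 1 (2.30 ± 0.051, adjusted p = 9.36e-22). With Cbs left out, Slc7a11 had the largest rise on this scale, before Fgf21, Nupr1 and Slc1a5, which lay between 1.85 for Slc1a5 and 2.19 for Fgf21. The scale understates the change of low genes. Fgf21 had 402 reads at day 21 and 57 at day 1, a ratio of 6.94 (exact 95% interval 5.25 to 9.33). By edgeR Fgf21 rose 6.95-fold and Slc7a11 5.05-fold. Cbs had 242 reads at day 21 and 16 at day 1, a ratio of 14.9 (exact 95% interval 8.98 to 26.5). It was tested only through its vector day 21 libraries, so this rise is a description, and its highest place there was fixed by the limit on low values. On the other side, 4 of the 5 one-carbon enzymes fell: Shmt2 had 226, 233 and 216 scaled RPM at day 21 against 464, 459 and 469.8 at day 1 (-1.04 ± 0.033), Mthfd1l was 2.01-fold lower, Mthfd2 1.49-fold lower and Shmt1 3.24-fold lower. Slc7a5 was 1.47-fold lower, Psat1 1.44-fold and Asns 1.13-fold lower. Atf4 had 499, 505 and 473 at day 21 and 496, 509 and 503 at day 1, groups that overlap (-0.030 ± 0.027, adjusted p = 0.300). With quantile normalization the sign turned and Atf4 was called higher (0.066, adjusted p = 0.0303). The calls of Phgdh and Slc38a2, both lower by about 0.1 or less on the log2 scale, did not hold with DESeq2 or with values rescaled by the median of ratios.

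**Figure D5:**
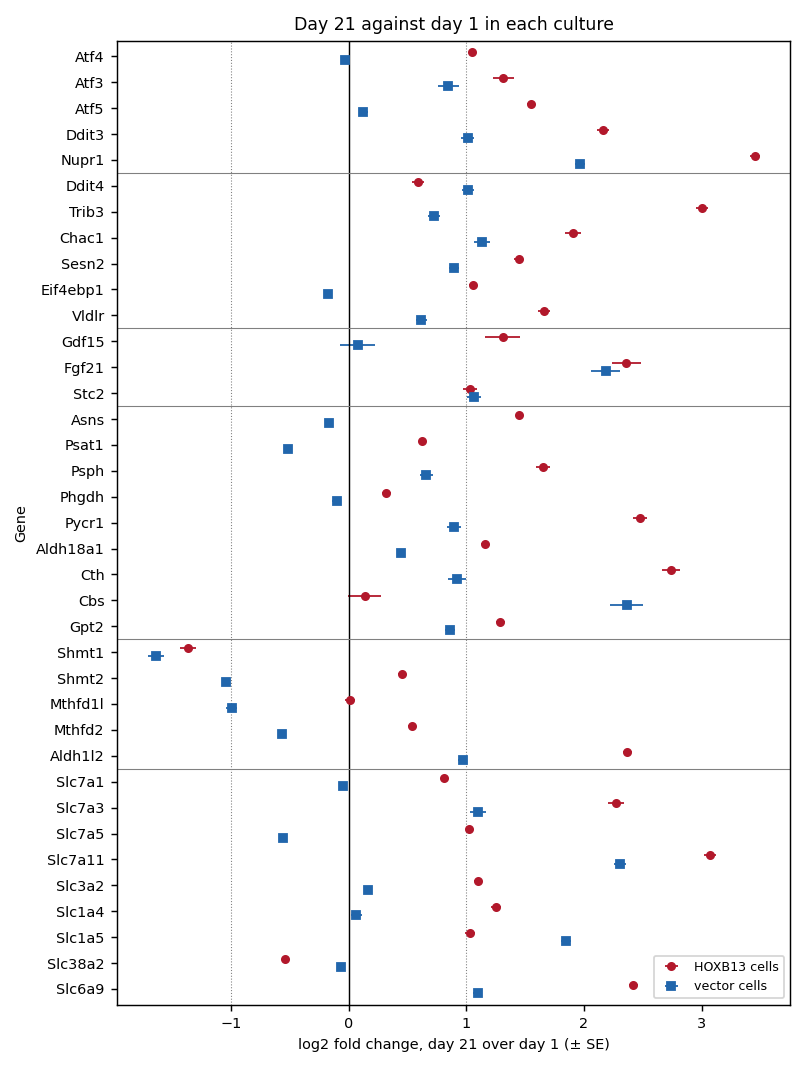
The horizontal axis is the log2 fold change of day 21 over day 1 with its standard error, for the 37 genes by role, with circles for HOXB13 cells and squares for vector cells; dotted lines mark 2-fold. Circles lie to the right of squares for most genes, by more than 2 on the log2 scale for Trib3, and the circle lies to the left by the test for Slc1a5, Slc38a2 and Ddit4, and furthest for Cbs.

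The difference between the cultures in their change over time was tested directly, as the interaction of virus and day, which passed in 68.2% of all tested genes. It was positive (a greater rise or a smaller fall in HOXB13 than in vector cells) for 31 of the 37 genes and at least 2-fold for 20, against 36.6% and 7.87% of all tested genes. It was negative for Slc1a5, Slc38a2 and Ddit4, none of them past 2-fold, and for Cbs, past 2-fold, against 31.7% and 9.53% of all genes. The value of Cbs is a description, since Cbs was tested only through its vector day 21 libraries. The genes higher over time in HOXB13 and lower in vector cells, each by the test, were Asns, Psat1, Phgdh, Shmt2, Mthfd2, Slc7a5 and Eif4ebp1, 7 of the 37 against 5.36% of all tested genes. Phgdh held this place only in part of the settings. Its fall in vector cells did not pass with the median of ratios, quantile normalization or DESeq2, nor its rise in HOXB13 cells without the TMM factors. Trib3 had the largest positive value (2.28 ± 0.074, adjusted p = 6.61e-18), with 8.55-fold higher at day 21 in HOXB13 and 1.66-fold higher in vector cells. Cth, Asns, Slc7a5 and Pycr1 came next, between 1.58 and 1.82. For Atf4 the value was 1.08 ± 0.038 (adjusted p = 3.18e-17). Stc2 rose in both cultures and its interaction did not pass (-0.037 ± 0.083), though it was -0.32 without the TMM factors (adjusted p = 0.00185). In that setting Atf3 (0.22) and Shmt1 (-0.0075) were no longer called. Leaving out any 1 of the 3 vector day 21 libraries took Cbs below the limit on low values and left no gene lower by 2-fold. That of Fgf21 is not settled by these data: 0.17 ± 0.18 on the scale used here (adjusted p = 0.389), -0.31 with a pseudocount of 4 and 2.58 by edgeR on the recovered reads, with 5 reads in all in HOXB13 cells at day 1. Without the TMM factors the median over all genes shifted by -0.26, higher calls made up 29.1% of all calls in place of 53.6%, and 11 of the 37 genes were at least 2-fold higher in place of 20, with a median over the 37 of 0.76 in place of 1.04.

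Upstream of ATF4, the kinases and regulators of eIF2alpha showed no common direction. At day 1, 6 of 14 measured genes were higher and 7 lower in HOXB13 than in vector cells, against 33.9% and 38.5% of all tested genes, with a median log2 fold change of -0.044 that turned to 0.17 without the TMM factors. Eif2ak2, the kinase PKR that binds double-stranded RNA, had 94.9, 96.9 and 101 scaled RPM in HOXB13, against 43.7, 44.4 and 47.2 in vector cells (1.10 ± 0.058, adjusted p = 4.07e-14). Impact, which inhibits the amino acid sensing kinase GCN2, was 1.64-fold higher. Ppp1r15a, the stress-induced subunit GADD34 through which eIF2alpha is dephosphorylated, was 1.48-fold lower. Over time in HOXB13 cells, Ppp1r15a was 2.40-fold higher at day 21, the endoplasmic reticulum kinase gene Eif2ak3 2.04-fold higher and Eif2ak2 2.20-fold lower. Of the 14 genes 6 were higher and 7 lower over time in HOXB13 cells, against 39.5% and 40.6% of all genes. In vector cells 5 were higher and 8 lower, against 41.7% and 41.9%. At least 2-fold higher were 2 in each culture, against 13.2% of all genes in HOXB13 and 16.1% in vector cells.

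Among 7 possible partners of ATF4, 3 were higher and 4 lower in HOXB13 cells at day 1, against 33.9% and 38.5% of all tested genes. The C/EBP genes Cebpb and Cebpd were lower, with 37.4, 42.5 and 47.3 scaled RPM in HOXB13 against 75.5, 82.4 and 78.2 in vector cells for Cebpb, and 17.8, 20.2 and 21.1 against 29.2, 30.6 and 29.2 for Cebpd. Both were far higher at day 21 in each culture: Cebpd had 279, 244 and 255 scaled RPM in HOXB13 cells at day 21, 13.2-fold its level at day 1, and was 8.64-fold higher in vector cells. Cebpa was the exception among the C/EBP genes at day 1, 1.58-fold higher in HOXB13 cells. It is also an adipocyte marker, and the 5 adipocyte markers, none of them at 0 throughout a group, summed to 389 to 396 in HOXB13 and 95.2 to 105 in vector cells at day 21, and 65.9 to 75.8 and 17.4 to 19.3 at day 1. Most of the sum was Fabp4, at 362 in HOXB13 and 60.7 in vector cells at day 21 on average, while Lipe was lower in HOXB13, at 18.3 against 32.2, and Adipoq stayed below 1 in every library.

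The cytosolic aminoacyl-tRNA synthetases, which charge tRNAs with amino acids and include further known ATF4 targets, were nearly all lower in HOXB13 cells at day 1. Of 20 genes 19 were lower, against 38.5% of all tested genes, and 2 of them were at least 2-fold lower, against 6.06%. The median log2 fold change was -0.72. Nars, for asparagine, had 308, 311 and 299 scaled RPM in HOXB13, against 744, 715 and 713 in vector cells (-1.24 ± 0.031, adjusted p = 2.26e-20), and Gars, for glycine, was 2.06-fold lower. At day 21, 4 were higher and 9 lower, against 37.3% and 35.1% of all genes, with a median of -0.046. The member that was higher at day 1 was Qars, for glutamine, named here after its value was seen. Over time 14 were higher and 4 lower in HOXB13 cells (10 and 8 without the TMM factors), where 39.5% and 40.6% of all genes were. In vector cells 5 were higher and 15 lower, where 41.7% and 41.9% of all genes were.

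The other arms of the endoplasmic reticulum stress response are those of ATF6 and XBP1. All 19 of their listed genes were higher at day 21 than at day 1 in both cultures (with quantile normalization 18 were higher and 1 lower in HOXB13 cells), against 39.5% of all genes in HOXB13 and 41.7% in vector cells, with median log2 fold changes of 1.33 in HOXB13 and 0.88 in vector cells. Dnajb9, a chaperone partner under XBP1, was 7.73-fold higher in HOXB13 and 5.08-fold higher in vector cells. At day 1, 5 were higher and 13 lower in HOXB13 against vector cells, against 33.9% and 38.5% of all genes, with a median of -0.22, and 7 higher and 9 lower without the TMM factors. The interaction was positive for 16 and negative for 2 (10 and 2 without the TMM factors), against 36.6% and 31.7% of all genes. By log2 fold change the largest at day 1 was Ern1, the sensor IRE1, at 20.8, 22.4 and 25.1 scaled RPM in HOXB13 against 50.5, 52.8 and 53.9 in vector cells.

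A few members need care in reading. Atf5, Ddit3, Shmt1, Shmt2, Aldh1l2, Slc7a5 and Slc6a9 overlap another protein-coding gene on the opposite strand in GENCODE M21. The library kit kept strand, per the labels, but the counting's use of strand is not stated there, so reads of such pairs may have been mixed. Levels of different genes are not compared, since scaled RPM is not divided by gene length.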

How the data were processed

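RNA of 12 libraries, 3 in each of 4 groups set by the virus and day in the sample labels, was read on the authors' deposited signal values, which are a gene's reads for each 1000000 reads of a TMM-scaled library, not log transformed. Divided by what 1 read is worth in its library, 100% of values above 0 came out whole within 0.01 of a read, which gave reads and depths. The tools listed in the submitters' processing notes are HTSeq 0.6.1, STAR 2.7.2a, DESeq2 and edgeR, with no role for any. Those notes list a human build, GRCh38, although the deposited identifiers are of mouse genes, and no mouse build is stated. Names, coordinates and overlaps came from GENCODE M21 (GRCm38), promoter windows from RefSeq (GRCm38.p6).

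Genes with at least 1 scaled RPM in at least 3 libraries were transformed as log2(value + 1) and fitted in limma 3.58.1 (R 4.3.3; eBayes with trend), with 1 mean per group and 5 contrasts. Tests were two-sided, adjusted by Benjamini and Hochberg over all 13516 genes, with a threshold of 0.05. On the recovered reads edgeR 4.0.16 called 9901 genes at day 1 and limma 9796. The scripts were tested on simulated data. The members and lists, the lists written from general knowledge, were chosen with earlier results of these data known. All members are named, and of each pathway list up to 3 called genes with the largest log2 fold change per simple contrast. Alternatives were pseudocounts of 0.25 and 4, no filter or a filter of 5, quantile normalization, scaling by the median of ratios or without the TMM factors, edgeR, DESeq2 1.42.0, a replicate block, only the libraries compared, and leaving out each library. Intervals cover counting error only.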

Additional observations from a re-analysis of the deposited data

Results flagged for a closer look

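In 35 of the 37 genes the change over time differed between HOXB13 and vector cells by the test of the interaction, as it did in 68.2% of all tested genes. The values are the log2 change from day 1 to day 21 in HOXB13 cells minus that in vector cells. Among transcription factors they were Nupr1 1.49, Atf5 1.42, Ddit3 1.15, Atf4 1.08 and Atf3 0.47. Among stress effectors and Gdf15 they were Trib3 2.28, Eif4ebp1 1.23, Gdf15 1.23, Vldlr 1.04, Chac1 0.77, Sesn2 0.55 and Ddit4 -0.42. Enzymes of amino acid synthesis had Cth 1.82, Asns 1.62, Pycr1 1.58, Psat1 1.14, Psph 0.99, Aldh18a1 0.71, Gpt2 0.43, Phgdh 0.42 and Cbs -2.23. Enzymes of one-carbon metabolism had Shmt2 1.49, Aldh1l2 1.40, Mthfd2 1.10, Mthfd1l 1.01 and Shmt1 0.27. Transporters had Slc7a5 1.58, Slc6a9 1.32, Slc1a4 1.19, Slc7a3 1.18, Slc3a2 0.94, Slc7a1 0.86, Slc7a11 0.77, Slc38a2 -0.47 and Slc1a5 -0.82. For 7 genes, Asns, Psat1, Phgdh, Shmt2, Mthfd2, Slc7a5 and Eif4ebp1, the cultures moved in opposite directions, up over time in HOXB13 and down in vector cells, each past the test, as in 5.36% of all tested genes. For Phgdh the fall in vector cells did not pass under several other settings, nor the rise in HOXB13 cells without the TMM factors. Cbs was tested only through its vector day 21 libraries, so its value is a description. Asns, for instance, had 301, 297 and 320.3 scaled RPM at day 21 and 114, 112 and 108 at day 1 in HOXB13 cells, and 274, 279 and 269 at day 21 and 313, 305 and 308 at day 1 in vector cells.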

How the results depend on the processing

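Of the counts of genes, 5 moved by more than 1.5 times under another scaling. Without the TMM factors, HOXB13 against vector at day 21 had 5 genes higher and 5 lower by 2-fold, and the interaction had 11 higher and 2 lower by 2-fold. With quantile normalization 1 gene was lower by 2-fold over time in vector cells. Leaving out 1 library, the genes lower by 2-fold ranged from 1 to 3 at day 21 and from 0 to 1 in the interaction. The stricter motif stood in 9.68% of the listed genes with a window. Equal replicate numbers were not treated as pairs: residual correlations of equal numbers ran from -0.0992 to 0.103, with 1 of 18 above 0.1, and of unequal ones from -0.0752 to 0.0695, and 0 of 12 libraries correlated best with their own number. With the replicate block 9763 genes in all were called at day 1 in place of 9796, 33 of the 37 were again lower, and none of the 185 gene results changed its call.

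The sign of single genes turned under these settings, mostly near 0, and the cause was not tested. For HOXB13 against vector at day 21 the value was -0.00043 for Eif4ebp1, 0.018 for Gdf15, -0.033 for Atf5 and -0.081 for Slc7a5 with quantile normalization, -0.026 for Atf5 and -0.072 for Slc7a5 without the TMM factors, and 0.00050 for Mthfd1l with edgeR. Over time in HOXB13 cells it was -0.0056 for Cbs and -0.027 for Mthfd1l with quantile normalization, and -0.25 without the TMM factors and -0.0098 with edgeR for Mthfd1l. Over time in vector cells it was 0.0060 with the median of ratios, 0.066 with quantile normalization and 0.0062 with DESeq2 for Atf4, and 0.036 for Slc38a2, -0.27 for Gdf15 and 0.022 for Slc7a1 with quantile normalization. In the interaction it was -0.31 for Fgf21 with a pseudocount of 4 and -0.0075 for Shmt1 without the TMM factors. With 1 library left out the values ranged from -0.22 to 0.039 for Cbs at day 1 between the viruses, from -0.23 to 0.078 for Gdf15 at day 21 between the viruses, from -0.049 to 0.033 for Mthfd1l at day 21 between the viruses, from -0.030 to 0.050 for Slc7a5 at day 21 between the viruses, from -0.019 to 0.042 for Mthfd1l over time in HOXB13 cells, from -0.059 to 0.24 for Gdf15 over time in vector cells, from -0.11 to 0.027 for Stc2 in the interaction. Reads per gene limit Cbs, Fgf21 and Gdf15, whose groups held as few as 5 reads.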

Other observations

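Neighbouring genes of amino acid and folate metabolism outside the 37 did not share one pattern. Of 13 measured folate and glycine cleavage enzymes, 1 was higher and 9 were lower in HOXB13 cells at day 1, against 33.9% and 38.5% of all tested genes, with a median log2 fold change of -0.47. At day 21 against day 1, 3 were higher and 9 lower in HOXB13 cells (39.5% and 40.6% of all genes), and 2 higher and 9 lower in vector cells (41.7% and 41.9%). Gldc, which cleaves glycine, was lower in HOXB13 cells at both days, at 0.683, 0.935 and 0.557 against 4.97, 4.95 and 8.88 at day 21. Of 16 other amino acid enzymes 6 were higher and 9 lower in HOXB13 cells at day 1, where all genes had 33.9% and 38.5%, and this balance turned to 8 and 7 without the TMM factors. Ass1, which makes the precursor of arginine, was higher in HOXB13 cells, with 38.7, 42.4 and 36.6 scaled RPM against 3.995, 4.95 and 4.83 in vector cells at day 21 (2.85 ± 0.091, limma adjusted p = 1.71e-18). Bcat1, the cytosolic branched-chain transaminase, was 2.92-fold lower at day 1, and Glul, glutamine synthetase, was 4.03-fold higher at day 21 in HOXB13 and 15.1-fold higher in vector cells.

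Of 18 other amino acid transporters 13 were higher and 3 lower at day 21 in HOXB13 cells, where 39.5% and 40.6% of all genes were, and 10 higher and 4 lower in vector cells, where 41.7% and 41.9% were. Slc7a2, an arginine carrier like Slc7a1 and Slc7a3, had 129, 147 and 126 scaled RPM at day 21 against 4.07, 4.22 and 4.92 at day 1 in HOXB13 cells, and 412, 402 and 382 against 19.5, 24.3 and 20.5 in vector cells. Its level was lower in HOXB13 cells on both days, as was that of Slc7a3. Slc43a2, a leucine carrier, was 17.8-fold higher at day 21 in HOXB13 and 10.4-fold higher in vector cells, while Slc38a4 was 7.12-fold and 9.57-fold lower. Among 16 genes through which mTORC1 senses amino acids, 9 were higher and 3 lower in HOXB13 cells at day 1, against the same 33.9% and 38.5%. Sesn3, a relative of Sesn2, was 3.15-fold higher in HOXB13 cells at day 1, where Sesn2 was 2.04-fold lower. Rragd, a Rag GTPase of the lysosome, had 24.4, 26.5 and 30.2 scaled RPM in HOXB13 and 1.30, 2.40 and 2.65 in vector cells at day 21 (3.19 ± 0.14, limma adjusted p = 1.06e-15).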
